A study of Mus musculus with 47 samples.

Results

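The genes described here encode subunits of the replicative DNA helicase and a factor that activates it, Mcm10. The members are Mcm2, Mcm3, Mcm4, Mcm5, Mcm6, Mcm7, Mcm10, Gins1, Gins2 and Cdc45. They were chosen by symbol, so that 10 of the 18194 named genes on the array are members, and their measured values played no part in the choice. A total of 28 probe sets carry one of these symbols in the platform annotation, and each gene is given by its brightest probe set over all 47 arrays.

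The MCM proteins Mcm2 to Mcm7 form a ring that is loaded onto replication origins in an inactive state before S phase. Cdc45 and the GINS complex then join the ring, and the resulting CMG helicase unwinds DNA ahead of the polymerases, with Mcm10 needed for its activation. These genes are transcribed mainly in cycling cells, many of them under E2F control, and MCM proteins are used in pathology as markers of proliferation.

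Expression was measured on Affymetrix arrays in primary B cell lymphoma cells from lymph nodes of mice with the Emu-myc transgene, which drives Myc in the B cell lineage. All cultures, untreated ones included, carried Bcl2 from an MSCVpuro retrovirus, were selected with puromycin for 48 h and grew on NIH 3T3 fibroblasts irradiated with 20 Gy. Adriamycin (ADR, doxorubicin, a DNA-damaging drug) was given at 0.05 µg/ml for 5 days, and untreated cultures are labelled native. The groups were Suv39h1 WT lymphomas under ADR and native (14 each), Suv39h1- lymphomas under ADR and native (5 each), and Suv39h1- cells carrying Suv39h1ER under ADR with 4OHT, under ADR alone and native (3 each). Suv39h1 is a histone H3 lysine 9 methyltransferase, Suv39h1ER is a form that is switched on with 4OHT (4-hydroxytamoxifen), and the labels give neither the allele nor the 4OHT dose. Only WT ADR and Suv39h1ER ADR 4OHT cells are labelled senescent. Animal ages are not given in the sources used here.

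Replicates are lymphomas with different numbers. For changes within cultures, the p-values use a spread estimated once per gene over all 22 cultures, of which 14 are WT. They do not measure the spread among the 5 Suv39h1- or the 3 Suv39h1ER cultures alone. Where levels were compared between genotypes, the p-values, SEs and intervals measure the spread between lymphomas. From earlier results of these data, WT 2949, 5043, 5766 and 6054, and Suv39h1- 7890 and 9250, may not be separate tumours, so results were also computed with each such set counted as 1. The Suv39h1ER cultures 4936 and 5043 share their numbers with a Suv39h1- and a WT lymphoma and were kept as separate cultures, as labelled. The median log2 level of an array was 4.32 to 4.43, apart from 4.07 for Suv39h1- 1032 under ADR. No pair of arrays held identical values. Of 8 B cell markers 7 were measured, and their mean level per array was 7.10 to 9.81 in all groups, while the 6 T cell markers measured averaged 4.00 to 4.68.

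In WT lymphomas all 10 helicase genes fell under ADR. The fall ranged from Gins1, at 3.42-fold lower, through Cdc45 (2.88-fold lower) and Mcm5 (2.82-fold lower), to Mcm7 (1.97-fold lower) and Gins2 (1.82-fold lower). Of all 18194 genes, 14.1% were called lower in this comparison at an adjusted p under 0.05 in limma, a linear model fitted across all genes with each culture as a block. The median log2 change of the 10 genes was -1.27, against -0.00020 over all genes, of which 50.1% lay below 0. In bulk RNA, fewer cells of a type and less RNA per cell cannot be told apart.

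Among the ring subunits, Mcm2, whose tail also binds histones, had log2 levels of 8.09 at the lowest, 8.72 at the median and 9.29 at the highest in WT ADR cultures, against 8.80, 9.79 and 10.50 in WT native cultures. Its change of -1.03 (SE 0.15, adjusted p = 1.36e-05) was a fall in 12 of 14 lymphomas. The levels overlapped widely, with 6 ADR cultures above the lowest native culture.

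Mcm3, a ring subunit next to Mcm5, had 7.97, 8.96 and 10.10 (lowest, median and highest) in WT ADR cultures, against 9.46, 10.27 and 10.87 in WT native cultures, a change of -1.38 (SE 0.16, adjusted p = 6.20e-07). Mcm5, which forms the ring's gate with Mcm2, had 7.52, 9.06 and 10.04 in WT ADR cultures, against 9.65, 10.55 and 11.30 in WT native cultures, and changed by -1.49 (SE 0.19, adjusted p = 1.81e-06). Mcm3 was lower in 13 of 14 lymphomas and Mcm5 in 14 of 14.

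Mcm4, Mcm6 and Mcm7 can form a helicase core by themselves in vitro. Mcm4 had 7.55, 8.86 and 9.74 in WT ADR cultures, against 9.19, 10.06 and 10.69 in WT native cultures (change -1.23, SE 0.15, adjusted p = 8.62e-07, lower in 14 of 14). Mcm7 had 9.87, 10.52 and 11.34 in WT ADR cultures, against 10.75, 11.40 and 12.42 in WT native cultures (change -0.98, SE 0.14, adjusted p = 6.49e-06, lower in 13 of 14). Both genes had 3 ADR cultures above the lowest native culture.

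Mcm6 was the member with no overlap between groups, by a margin smaller than the rounding used here. Its levels were 9.40, 10.22 and 10.99 in WT ADR cultures, against 10.99, 11.37 and 11.98 in WT native cultures, with the highest ADR culture (9584) just under the lowest native culture (5560). It changed by -1.23 (SE 0.13, adjusted p = 2.50e-07, lower in 14 of 14). Over all genes, 0.561% had every ADR level below every native level.

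Mcm10, the activation factor, had 5.45, 6.74 and 8.02 in WT ADR cultures, against 7.35, 8.10 and 8.67 in WT native cultures. It changed by -1.31 (SE 0.17, adjusted p = 1.97e-06) and was lower in 13 of 14 lymphomas. Lymphoma 9584 alone had an ADR level above the lowest native level, as it did for Gins1 and Cdc45.

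The GINS subunits fell to unequal degrees. Gins1 (the Psf1 subunit) had 4.88, 6.37 and 7.20 in WT ADR cultures, against 7.12, 7.95 and 8.77 in WT native cultures (change -1.77, SE 0.17, adjusted p = 5.63e-08). Gins2 (the Psf2 subunit) had 5.83, 6.70 and 7.31 in WT ADR cultures, against 7.17, 7.66 and 8.03 in WT native cultures (change -0.86, SE 0.12, adjusted p = 7.72e-06). Both were lower in 14 of 14 lymphomas. The log2 change of Gins1 was below that of Gins2 in 12 of 14 lymphomas, the exceptions being 1467 and 5043, a comparison chosen after the values were seen. Gins1 had the lowest change of the 10 genes in 9 lymphomas and Gins2 the highest in 9.

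Cdc45, which bridges the ring and GINS, had 5.52, 6.14 and 7.47 in WT ADR cultures, against 7.15, 7.90 and 8.21 in WT native cultures. It changed by -1.53 (SE 0.20, adjusted p = 2.46e-06), was lower in 13 of 14 lymphomas and was the gene with the lowest change in 4 of them. In all, 5 of the 10 genes were lower in every WT lymphoma, against 2.88% of all genes.

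**Figure D1:**
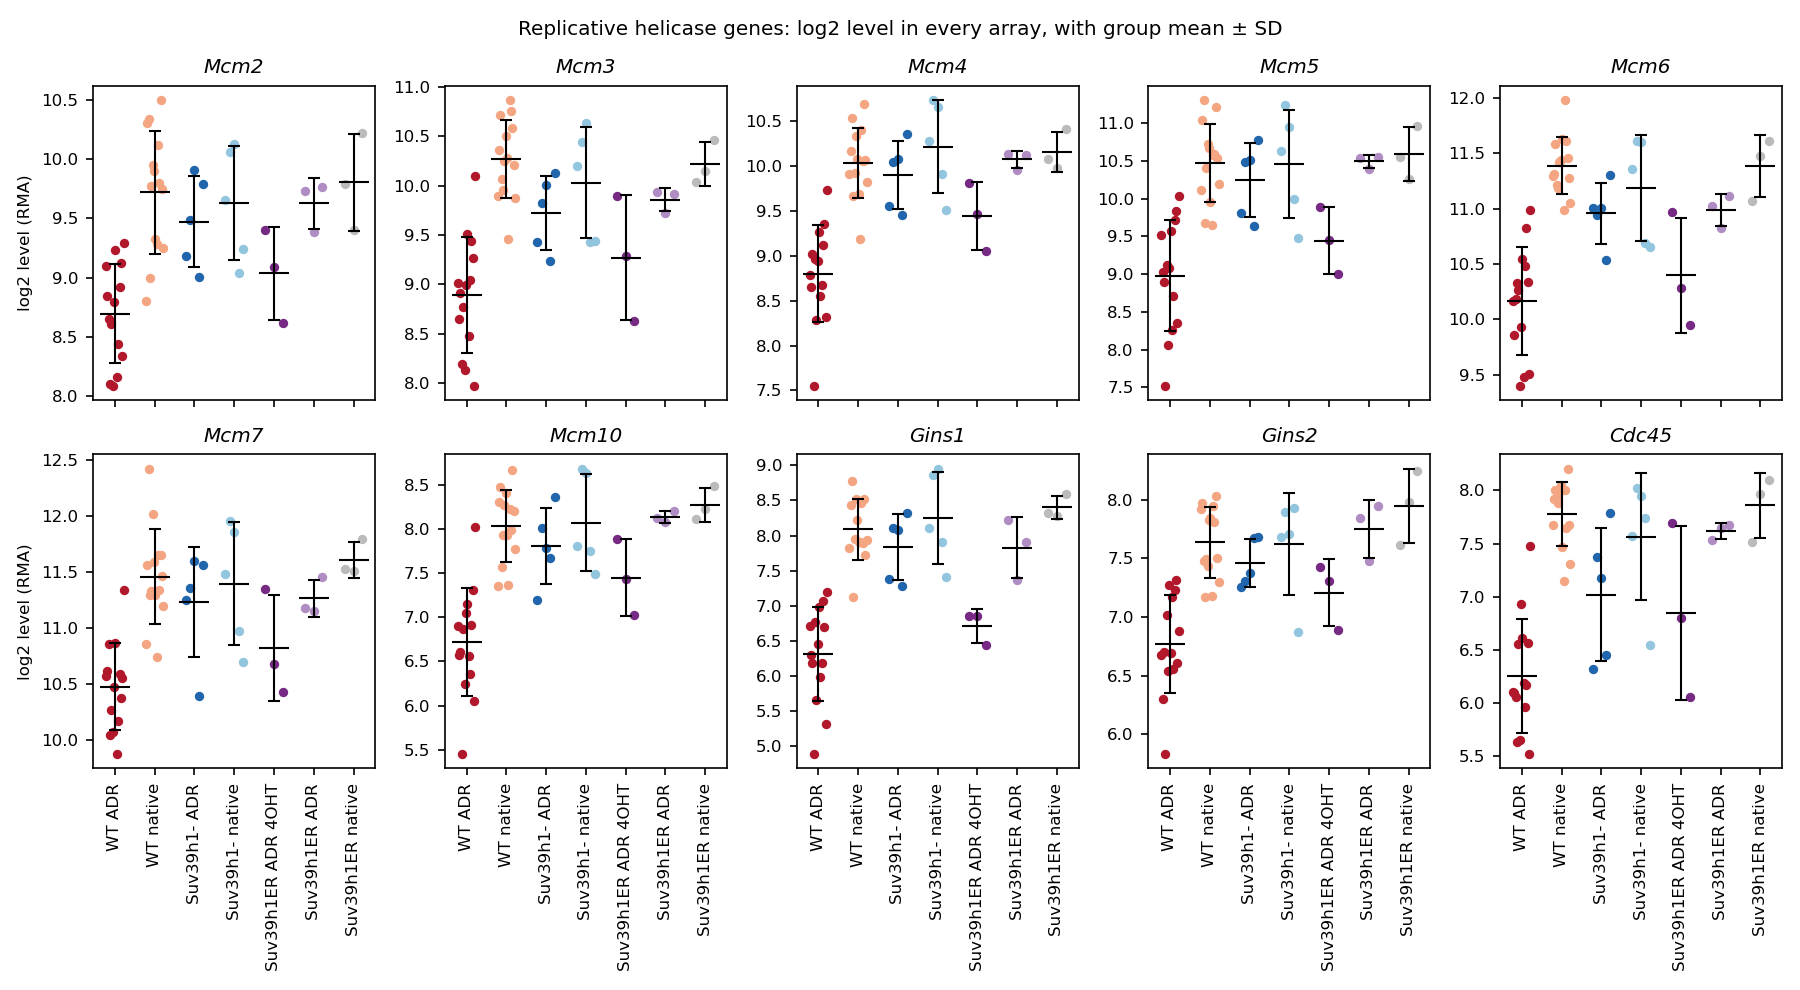
Log2 level of each helicase gene (y axis, RMA units) in every array of the 7 groups (x axis). Points are arrays and bars are group means ± SD. The WT ADR arrays lie lowest in most panels, and for Mcm6 all 14 lie below the 14 WT native arrays.

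Promoter sequences are shown because the 10 genes fell together. Sequences were taken from RefSeq (GRCm38.p6), which listed promoters for 7 of the 10 genes in the table used here, Mcm7 with a pair of starts. The 250 bases before each start were searched on both strands for CCAAT, the letters of the NF-Y box, and for 4 forms of the E2F site, TTTCCCGC, TTTCGCGC, TTTGCCGC and TTTGGCGC. CCAAT was found in all 8 promoters of the 7 genes, against 33.8% of 32851 promoters. It stood at 2 or more places in 5 of the 8 (Mcm3, Mcm5, Mcm6, Mcm10 and 1 start of Mcm7), against 10.1% of promoters. An E2F form was found in 3 of the 8 (Mcm5, Mcm6 and the same start of Mcm7), against 1.86% of promoters. The other Mcm7 start had no E2F form and 1 CCAAT. In Mcm5 and Mcm6 a pair of E2F forms on opposite strands overlap in a 12-base run, TTTCGCGCCAAA in Mcm5 and its reverse complement TTTGGCGCGAAA in Mcm6. That run, chosen after these windows were seen, occurred in 4 of the 32851 promoters (0.0122%), those of Mcm5, Mcm6, Msh3 and Mycn. The 160 bases before the start of 4 genes are shown 5′ to 3′, with E2F and CCAAT matches on either strand in capitals, for Mcm5 (chr8:75109349-75109508, plus strand), Mcm6 (chr1:128359706-128359865, minus strand), Mcm3 (chr1:20820313-20820472, minus strand) and Mcm10 (chr2:5012792-5012951, minus strand).
Mcm5: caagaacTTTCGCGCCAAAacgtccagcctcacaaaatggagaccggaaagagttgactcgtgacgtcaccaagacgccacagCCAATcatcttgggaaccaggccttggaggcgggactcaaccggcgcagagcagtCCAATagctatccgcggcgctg
Mcm6: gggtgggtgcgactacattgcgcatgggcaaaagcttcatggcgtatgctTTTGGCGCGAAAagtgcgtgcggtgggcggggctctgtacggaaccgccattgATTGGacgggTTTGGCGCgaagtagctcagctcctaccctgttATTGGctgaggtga
Mcm3: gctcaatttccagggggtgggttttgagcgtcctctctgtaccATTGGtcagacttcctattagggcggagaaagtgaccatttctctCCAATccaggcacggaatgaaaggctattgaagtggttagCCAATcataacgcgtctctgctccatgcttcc
Mcm10: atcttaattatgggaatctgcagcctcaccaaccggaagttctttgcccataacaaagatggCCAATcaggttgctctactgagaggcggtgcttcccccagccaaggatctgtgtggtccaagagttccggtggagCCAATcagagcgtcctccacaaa

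The first capital run of Mcm5 and of Mcm6 is the 12-base run, and each window of these 2 genes also holds CCAAT or its reverse ATTGG at 2 places. Mcm3 has 3 such places and Mcm10 has 2, with no E2F form in their windows.

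Lymphomas differed in how far the whole set fell. Per lymphoma, the mean log2 change of the 10 genes was -1.28 ± 0.55 (SD, n = 14). The lowest mean was -2.08 in lymphoma 3769, where Gins1 changed by -2.87 and Mcm5 by -2.66, and the next were -1.79 in 9583 and -1.77 in 5766. The highest mean was -0.07 in lymphoma 9584, where 5 of the 10 genes lay below 0 and the changes ran from Gins1 at -0.75 to Mcm10 at 0.26. All 10 genes were lower in 12 of 14 lymphomas, the exceptions being 9584 and 1467, where Mcm2 was higher by 0.30 on the log2 scale and the other 9 genes were lower. Lymphoma 5043 had the next smallest mean at -0.69. Of the 140 changes, 134 were below 0 and 92 were below -1.

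The members moved with each other across lymphomas. Over the 14 WT changes the Pearson correlation between pairs of genes had a median of 0.79 over 45 pairs, and the highest was between Mcm3 and Mcm10 at 0.976. Gins2 stood apart, with a mean correlation of 0.31 with the other 9 genes against 0.65 to 0.82 for the rest, and its lowest was with Mcm2 at 0.04. These points share arrays, normalization and lymphoma, so the correlations are given as a description.

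**Figure D2:**
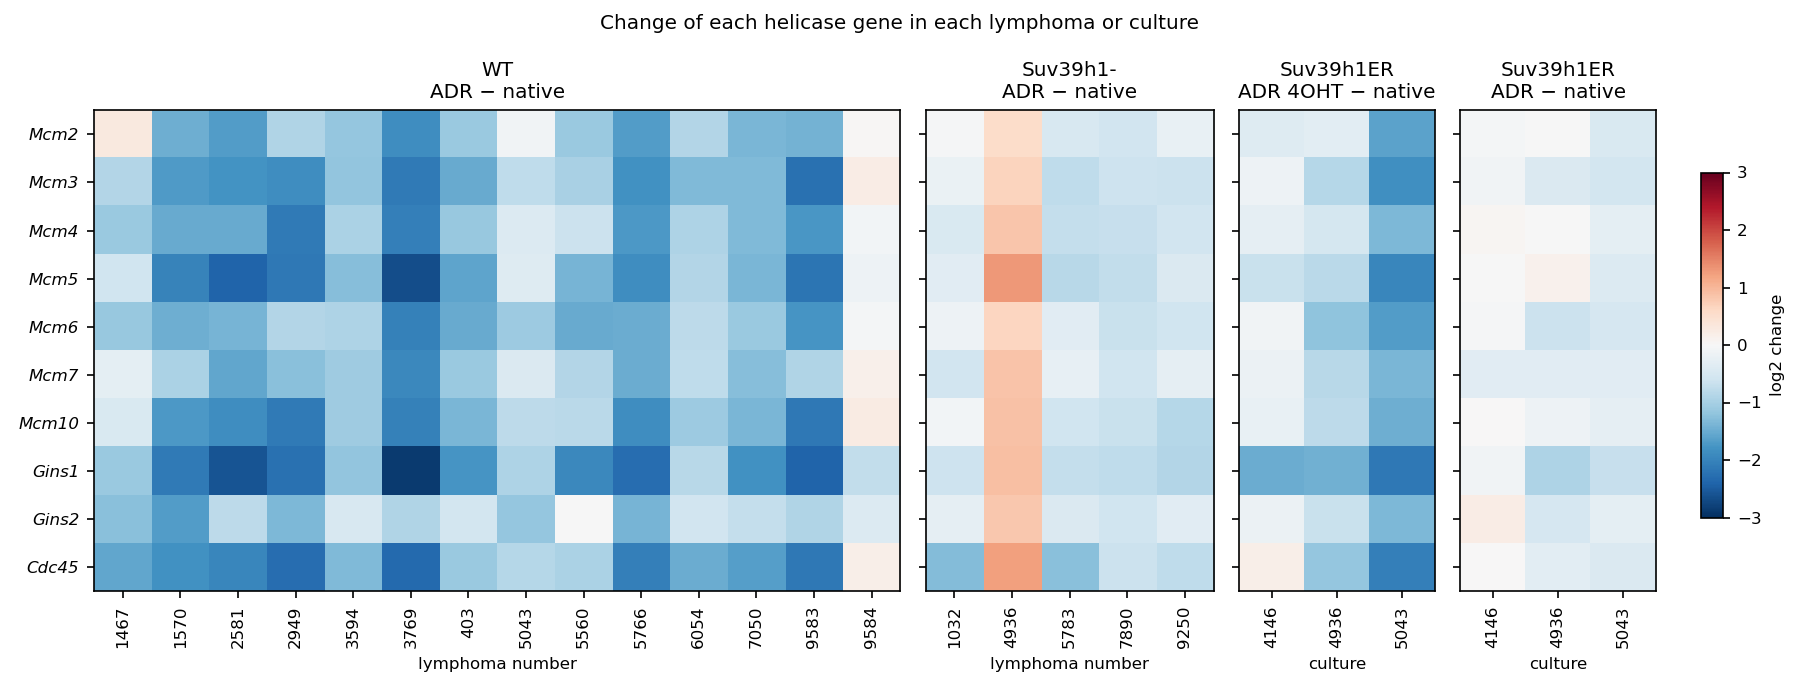
Log2 change of each helicase gene (rows) in each lymphoma or culture (columns), blue for lower and red for higher after treatment. WT 9584 is pale throughout with a mean of -0.07, and Suv39h1- 4936 is red in all 10 rows with a mean of 0.87.

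Other replication genes fell in the same WT comparison. Of the other MCM and GINS genes 4 of 6 measured were called lower and 5 lay below 0. The called genes included Mcm8 (-1.32, adjusted p = 2.44e-06), a helicase of homologous recombination, Mcmbp (-0.52, adjusted p = 0.000159), a chaperone of MCM complexes, and Gins4 (-0.41, adjusted p = 0.000728), another GINS subunit. Mcm9, the partner of Mcm8, had a change of 0.26 (adjusted p = 0.261). Of 9 origin recognition and licensing genes 7 were called lower and all 9 lay below 0. Cdc6, which helps load the MCM ring, changed by -1.73, the licensing inhibitor Gmnn by -1.40 and Orc6 by -1.003. Orc2 (-0.31, adjusted p = 0.0886) and Orc4 (-0.12, adjusted p = 0.291), also subunits of the origin recognition complex, did not pass.

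All 7 origin firing genes fell, among them Ticrr (-1.50), which brings Cdc45 to origins, Dbf4 (-1.27), the activator of the Cdc7 kinase that phosphorylates the MCM ring, and Topbp1 (-1.14). Of 26 fork genes 25 were called lower and all 26 lay below 0. The polymerase alpha subunit Pola1 changed by -1.99, the clamp loader subunit Rfc4 by -1.66 and the polymerase delta subunit Pold2 by -1.35. The median change was -0.46 for the other MCM and GINS genes, -0.81 for licensing, -1.14 for firing and -1.18 for fork genes. Mki67, a proliferation marker, changed by -2.31 (adjusted p = 1.58e-07), and 9 of 11 mitotic kinesins were called lower, with a median of -1.67. These lists were chosen with earlier results known, and their counts are to be read beside the 14.1% of all genes.

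The genes outside the set whose change was most like the mean change of the 10 members over the 22 cultures (ADR minus native) were Rad54l (Pearson r = 0.970), a motor protein of recombination repair, Asf1b (0.970), a histone chaperone, Fignl1 (0.967), Uhrf1 (0.966), which maintains DNA methylation at forks, and Rrm1 (0.965), the large subunit of ribonucleotide reductase. The median over all other genes was -0.05. Their WT changes were -1.58 for Rad54l, -1.47 for Asf1b, -1.83 for Fignl1, -1.67 for Uhrf1 and -1.36 for Rrm1.

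Markers of other cells moved in the same cultures. In WT, 17 of the 19 measured markers of fibroblasts, the feeder cell type, were called higher, against 16.1% of all genes. Their mean level per array was 4.83 to 9.62 in WT ADR cultures, against 4.20 to 5.44 in WT native cultures. Macrophage markers were called higher in 7 of 10, with mean levels of 6.31 to 8.95 in WT ADR cultures, against 4.99 to 8.09 in WT native cultures. Of 7 neutrophil markers 2 were called higher, and none of the 6 T cell markers was called. Of 7 B cell markers 3 were called lower, with mean levels of 7.68 to 9.81 in WT ADR cultures, against 8.65 to 9.36 in WT native cultures.

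In 5 WT lymphomas the mean log2 change of the fibroblast markers was under 1. It was -0.12 in 1467, 0.51 in 5043, 0.66 in 2949, 0.80 in 1570 and 0.88 in 9584. The mean helicase changes were -0.81 in 1467, -0.69 in 5043, -1.71 in 2949, -1.65 in 1570 and -0.07 in 9584, and those of 9584, 5043 and 1467 were the smallest of the 14. In lymphoma 403, with a fibroblast change of 4.55, the helicase mean was -1.28, and in 5560, at 4.17, it was -1.02. Over the 14 lymphomas the correlation of the helicase mean with the fibroblast change was -0.28, with the macrophage change -0.12 and with the kinesin change 0.76, values that share arrays and normalization. With the fibroblast change as a covariate, 8 of 10 genes were called lower at a fibroblast change of 0. Mcm2 (-0.45, adjusted p = 0.291) and Mcm7 (-0.57, adjusted p = 0.102) were not. Only 1467 had a fibroblast change below 0, so these estimates lie near the edge of the values. The macrophage change was not used as a covariate. The slope on the fibroblast change was called for 0 of the 10 genes, against 17.6% of all genes, and ranged from -0.29 (Mcm2) to 0.20 (Gins2), with 9 of 10 below 0. The slopes of Mcm2 (p = 0.0132, adjusted p = 0.0664), Mcm7 (p = 0.0363, adjusted p = 0.137) and Gins2 (p = 0.0129, adjusted p = 0.0653) had an unadjusted p under 0.05 in limma.

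**Figure D3:**
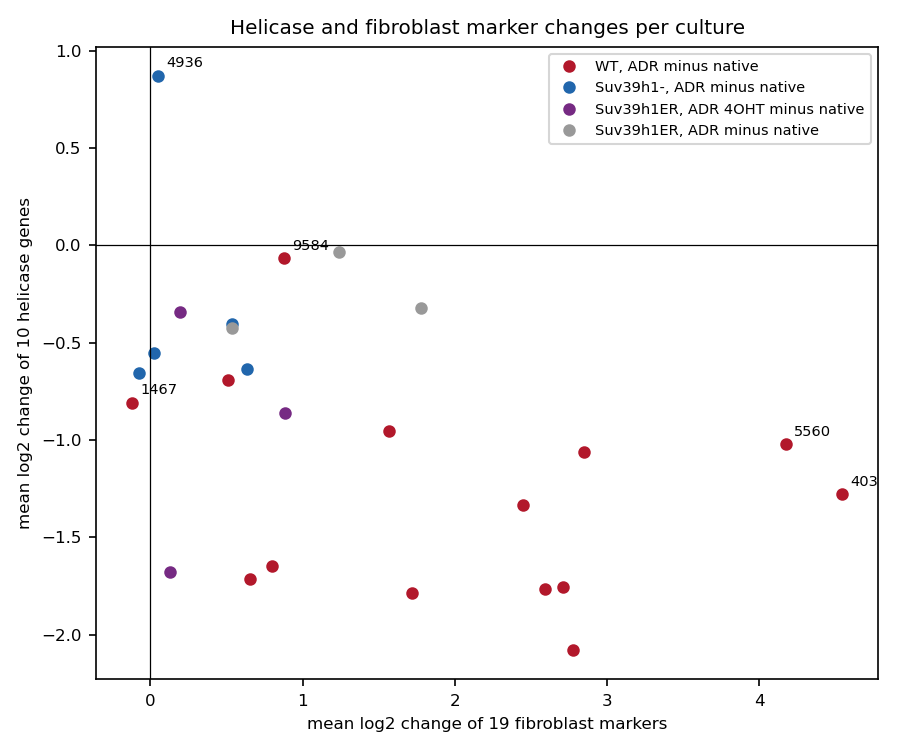
Mean log2 change of the 10 helicase genes (y axis) against the mean log2 change of 19 fibroblast markers (x axis), with 1 point per culture and comparison. WT 1467 lies at a fibroblast change of -0.12 with a helicase change of -0.81, and WT 403 at 4.55 with -1.28.

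In Suv39h1- lymphomas no helicase gene was called after ADR. All 10 mean changes were below 0, against 58.2% of all genes, between -0.55 (Cdc45, 95% interval -1.23 to 0.14) and -0.15 (Mcm2, 95% interval -0.69 to 0.38), with a median of -0.25 against -0.04 over all genes. Adjusted p-values in limma ran from 0.599 to 0.888, and none of the 10 had an unadjusted p under 0.05, against 10.4% of all genes. Of all genes, 0.011% were called lower and 0 higher.

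A single lymphoma ran against the other 4. In 4936 all 10 genes were higher under ADR, by 0.54 (Mcm2) to 1.31 (Mcm5) on the log2 scale, with a mean of 0.87. In the other 4 lymphomas all 40 changes were below 0, with means of -0.66 in 7890, -0.64 in 5783, -0.55 in 9250 and -0.40 in 1032. Lymphoma 4936 had the lowest native level of the 5 for 8 of the 10 genes and the highest ADR level for 8. Without it the changes ran from -0.99 to -0.33, with adjusted p-values from 0.181 to 0.695, and still no gene was called, with 3 at an unadjusted p under 0.05.

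The values by lymphoma are given in the order 1032, 5783, 7890, 9250 and 4936. Gins1 had 7.28, 7.39, 8.11, 8.09 and 8.32 in Suv39h1- ADR cultures, against 7.90, 8.10, 8.86, 8.95 and 7.41 in Suv39h1- native cultures. Cdc45 had 6.45, 6.32, 7.37, 7.18 and 7.79 in Suv39h1- ADR cultures, against 7.74, 7.58, 8.02, 7.94 and 6.55 in Suv39h1- native cultures. The first 4 lymphomas were lower under ADR for both genes, and 4936 was lower in its native culture.

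In the same order, Mcm5 had 9.64, 9.81, 10.49, 10.51 and 10.78 in Suv39h1- ADR cultures, against 9.99, 10.64, 11.24, 10.94 and 9.47 in Suv39h1- native cultures. Mcm6 had 10.53, 11.01, 10.94, 11.01 and 11.30 in Suv39h1- ADR cultures, against 10.69, 11.36, 11.61, 11.60 and 10.66 in Suv39h1- native cultures. Gins2 had 7.67, 7.26, 7.31, 7.37 and 7.68 in Suv39h1- ADR cultures, against 7.93, 7.68, 7.90, 7.71 and 6.87 in Suv39h1- native cultures. The groups overlapped for each of the 10 genes, where 0.517% of all genes had every ADR level below every native level. In lymphoma 1032, whose ADR array had the low median, Cdc45 changed by -1.29 while Mcm2, Mcm3, Mcm6 and Mcm10 changed by -0.20 to -0.04.

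The fibroblast markers gave no call in Suv39h1- lymphomas, with mean levels of 4.57 to 6.58 in ADR cultures, against 4.52 to 5.94 in native cultures. In 4936 their mean change was 0.05. Other replication genes gave no call either, with medians of -0.23 for licensing, -0.45 for firing and -0.28 for fork genes.

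The responses of both genotypes were compared in the same fit. The Suv39h1- response minus the WT response was above 0 for all 10 genes, where 58.1% of all genes lay below 0, from 0.70 (Gins2, SE 0.24) to 1.36 (Gins1, SE 0.33, 95% interval 0.68 to 2.04), with a median of 0.99 against -0.05 over all genes. All 10 had an unadjusted p under 0.05, against 18.8% of all genes. None passed after adjustment over all genes, where p ran from 0.0561 (Gins1) to 0.179 (Cdc45), and 0.154% of all genes were called higher.

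Single lymphomas moved this count. Without Suv39h1- 4936 the differences were 0.46 to 1.03, 8 of 10 genes kept an unadjusted p under 0.05, and the lowest adjusted p was 0.184. Without WT 9584, 5 genes were called (Gins1, Mcm3, Mcm5, Mcm6 and Mcm10). Without WT 2949 there were 2 (Gins1 and Mcm6), and without WT 1467 or WT 5043 there was 1 (Gins1). The count over all genes moved as well, from 62 with all lymphomas to 0 without Suv39h1- 4936. It was 226 without WT 9584, 258 without WT 2949, 173 without WT 1467 and 84 without WT 5043. The fibroblast markers differed in the same comparison, below 0 in 19 of 19 with a median of -1.88 and none called, and their part in the difference was not tested here.

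In native lymphomas no helicase gene differed between genotypes past the threshold. The mean of the 10 genes per array was 9.44 ± 0.52 (SD, n = 5) in Suv39h1- native cultures and 9.49 ± 0.34 (SD, n = 14) in WT native cultures. Differences lay between -0.24 (Mcm3, 95% interval -0.70 to 0.22) and 0.18 (Mcm4, 95% interval -0.26 to 0.62). None of the 10 passed in limma (adjusted p from 0.774 to 0.989), none had an unadjusted p under 0.05, against 9.54% of all genes, and 1.09% of all genes were called either way.

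Under ADR, all 10 genes lay higher in Suv39h1- than in WT lymphomas and 9 were called higher, against 6.3% of all genes. Of their 28 probe sets, each tested on its own, 14 were called higher, where 4131 of 34958 probe sets were called either way. Gins1 had 7.28 to 8.32 in Suv39h1- ADR cultures, all above the 4.88 to 7.20 of WT ADR cultures, and was 2.88-fold higher (log2 difference 1.52, SE 0.31, adjusted p = 0.00485). It was the member whose groups did not overlap, against 0.566% of all genes. Mcm5 had 9.64 to 10.78 in Suv39h1- ADR cultures, against 7.52 to 10.04 in WT ADR cultures (difference 1.27, SE 0.34, adjusted p = 0.0199). Mcm4 had 9.46 to 10.36 in Suv39h1- ADR cultures, against 7.55 to 9.74 in WT ADR cultures (difference 1.096, SE 0.25, adjusted p = 0.00918). For both, Suv39h1- 5783 and 1032 lay within the WT range.

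The differences of the other called genes were 1.08 for Mcm10 (adjusted p = 0.0187), 0.83 for Mcm3 (0.0481), 0.80 for Mcm6 (0.0252), 0.78 for Mcm2 (0.0193), 0.75 for Mcm7 (0.0230) and 0.69 for Gins2 (0.0237). Cdc45 did not pass (0.77, SE 0.28, adjusted p = 0.0714). The call of Mcm3 was lost with the mean of all probe sets (adjusted p = 0.103), with quantile normalization (adjusted p = 0.0573) and without any 1 of 11 of the 14 WT lymphomas. WT 9584 was the highest WT culture under ADR for 9 of the 10 genes. The mean of the 10 genes was 9.16 ± 0.37 (SD, n = 5) in Suv39h1- ADR cultures and 8.21 ± 0.47 (SD, n = 14) in WT ADR cultures.

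The count of 9 changed with the lymphomas included, as did the count over all genes. Without Suv39h1- 4936, 2 genes were called (Gins1 and Mcm4), without 9250 there were 3 (Gins1, Mcm4 and Mcm10), and without 7890 there were 4 (Gins1, Gins2, Mcm2 and Mcm4). With alike lymphomas counted once, 3 were called (Gins1, Gins2 and Mcm4). Without 5783 there were 9, and without 1032 there were 10. Gins1 and Mcm4 were called in each of these. Over all genes, 2293 were called either way with all lymphomas, 1365 without 4936, 1227 without 9250 and 1369 without 7890. The number was 939 with alike lymphomas counted once, 2190 without 5783 and 3389 without 1032. The 10 differences without 4936 were above 0, at 0.58 to 1.40, and over all arrays 56.4% of all genes had a difference below 0.

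Among other replication genes under ADR, 6 of 7 firing, 15 of 26 fork and 4 of 9 licensing genes were called higher in Suv39h1- lymphomas. Of the other MCM and GINS genes 1 of 6 was called higher, against 6.3% of all genes. No firing, licensing or other MCM and GINS gene lay below 0. Pola1 differed by 1.78, Mcm8 by 1.14, Gmnn by 1.11 and Topbp1 by 1.03. The kinesins were called higher in 7 of 11. In the same arrays the fibroblast markers were below 0 in 19 of 19, with 1 called, and the macrophage markers in 10 of 10, with 1 called. The 3′ minus 5′ difference of Gapdh probe sets, a sign of RNA quality, was 0.22 to 0.42 (median 0.30) in Suv39h1- ADR cultures, against 0.01 to 0.91 (median 0.11) in WT ADR cultures. Its native medians were 0.24 in Suv39h1- and 0.10 in WT cultures. For Actb the medians were 0.86 in Suv39h1- ADR, 0.51 in WT ADR, 0.82 in Suv39h1- native and 0.61 in WT native cultures. The part of these in the helicase differences was not tested.

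**Figure D4:**
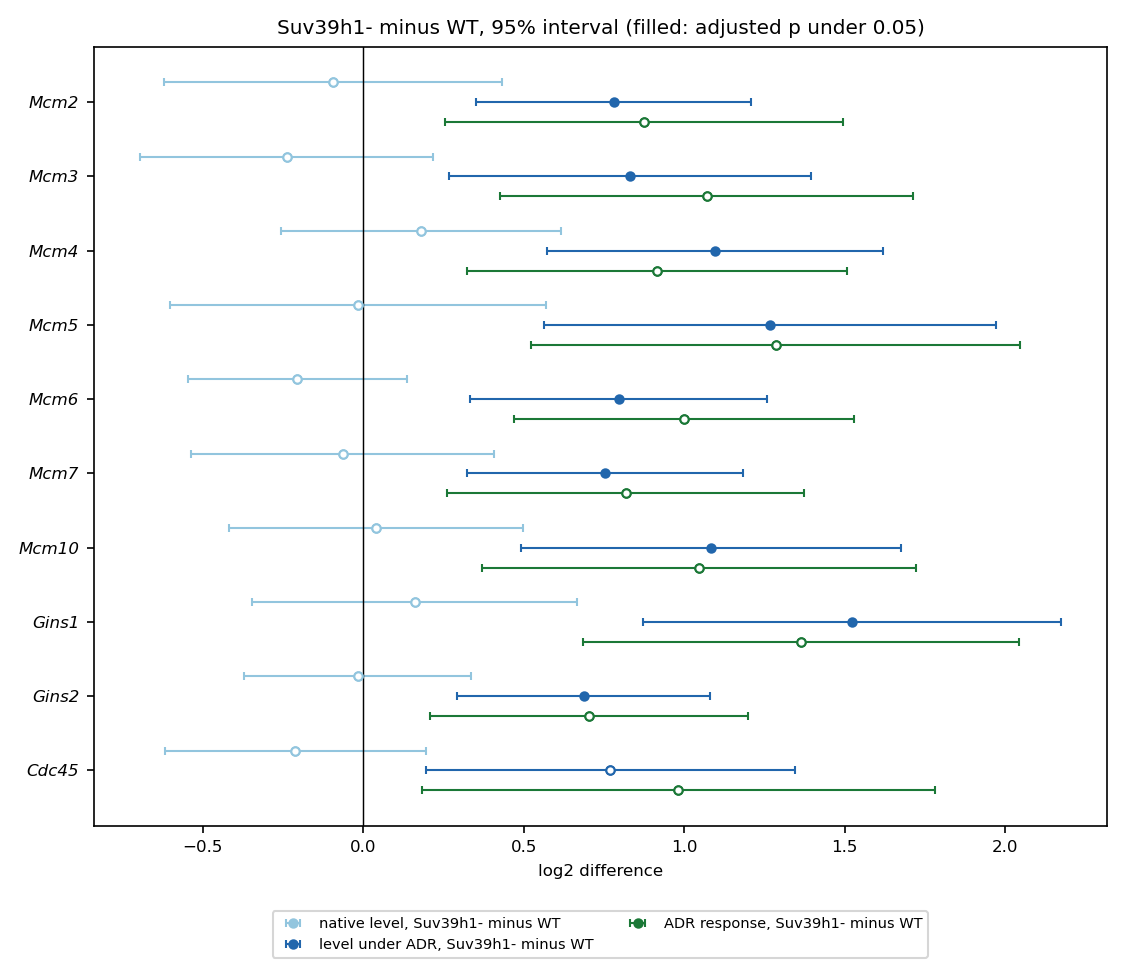
Log2 difference of Suv39h1- minus WT with its 95% interval (x axis) for each helicase gene (y axis), for native levels, for levels under ADR and for the ADR response. Filled points passed an adjusted p under 0.05, which was 9 genes for the levels under ADR and 0 genes for the others.

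In the 3 Suv39h1ER cultures the group mean of each helicase gene was lowest under ADR with 4OHT, though not in every culture. Against native cultures all 10 changes were below 0, against 51.5% of all genes, from -1.69 (Gins1) to -0.71 (Mcm4), with a median of -0.89 against -0.01 over all genes. Gins1 was called (3.22-fold lower, SE 0.36 on the log2 scale, adjusted p = 0.0140), where 1.57% of all genes were called lower. This call was lost with only the groups compared in the fit (adjusted p = 0.0748), without SuvER-4936 (adjusted p = 0.0692) and without SuvER-5043 (adjusted p = 0.139). The next lowest adjusted p was 0.0599, for Mcm6 (-0.99). All 10 genes had an unadjusted p under 0.05, against 16.3% of all genes, with the spread estimated over the cultures of all groups. Of the 10 genes 9 were lower in 3 of 3 cultures, against 19.2%.

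In the order SuvER-4146, SuvER-4936 and SuvER-5043, Gins1 had 6.85, 6.85 and 6.44 in ADR 4OHT cultures, 8.22, 7.36 and 7.91 in ADR cultures, and 8.33, 8.28 and 8.59 in native cultures. The ADR 4OHT levels lay below all ADR and all native levels. Mcm5 had 9.89, 9.45 and 8.996 in ADR 4OHT cultures, 10.53, 10.40 and 10.54 in ADR cultures, and 10.55, 10.26 and 10.96 in native cultures. Its ADR and native levels overlapped, and its ADR 4OHT levels lay below both.

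Cdc45 had 7.69, 6.80 and 6.06 in ADR 4OHT cultures, 7.53, 7.65 and 7.68 in ADR cultures, and 7.52, 7.96 and 8.10 in native cultures, in the same order of cultures. Culture SuvER-4146 had no lower Cdc45 with 4OHT, and SuvER-5043 was the lowest. Mcm6 had 10.97, 10.28 and 9.95 in ADR 4OHT cultures, 11.03, 10.83 and 11.11 in ADR cultures, and 11.07, 11.48 and 11.61 in native cultures. For 8 of the 10 genes (all but Mcm2 and Cdc45) every ADR 4OHT level lay below every native level, against 11.9% of all genes.

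Against ADR alone, 4OHT gave changes below 0 for all 10 genes, against 53.7% of all genes, from -1.12 (Gins1, SE 0.36, adjusted p = 0.186) to -0.44 (Mcm7, SE 0.30, adjusted p = 0.601), with a median of -0.61 against -0.02 over all genes. None was called in limma, where 0.0989% of all genes were called lower. Gins1, Mcm5 (-1.05) and Mcm6 (-0.59) had an unadjusted p under 0.05, against 12.5% of all genes. Of the 10 genes 8 were lower in 3 of 3 cultures, against 19.5%, and 5 (Mcm4, Mcm5, Mcm10, Gins1 and Gins2) had no overlap, against 11.7%.

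The cultures differed in size of response. The mean change of the 10 genes under ADR 4OHT against ADR was -0.31 in SuvER-4146, -0.54 in SuvER-4936 and -1.26 in SuvER-5043. In SuvER-4146 Gins1 changed by -1.37 while Cdc45 and Mcm7 lay above 0 at 0.16 each. The mean log2 change of the fibroblast markers between these groups, with none called, was -1.05 in SuvER-4146, -0.89 in SuvER-4936 and -0.41 in SuvER-5043. That of the macrophage markers was 0.31, -1.63 and 0.19 in the same order. The 3′ minus 5′ difference of Actb was 0.88 to 0.92 in ADR 4OHT cultures, 0.47 to 0.79 in ADR cultures and 0.91 to 1.39 in native cultures. For Gapdh it was 0.34 to 0.38, 0.26 to 0.47 and 0.29 to 0.40. The part of these in the helicase changes was not tested.

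Under ADR alone the Suv39h1ER cultures gave no call in limma against native cultures. Changes lay between -0.57 (Gins1, 95% interval -1.32 to 0.18) and -0.08 (Mcm4, 95% interval -0.74 to 0.57), with a median of -0.22 against 0.01 over all genes. None had an unadjusted p under 0.05, against 12.3% of all genes, and 0.0385% of all genes were called lower. Mcm3, Mcm7 and Gins1 had no overlap between groups, against 9.23% of all genes, and 5 genes were lower in 3 of 3 cultures, against 17.2%. The comparisons with native and with ADR share cultures, so their values are not independent.

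**Figure D5:**
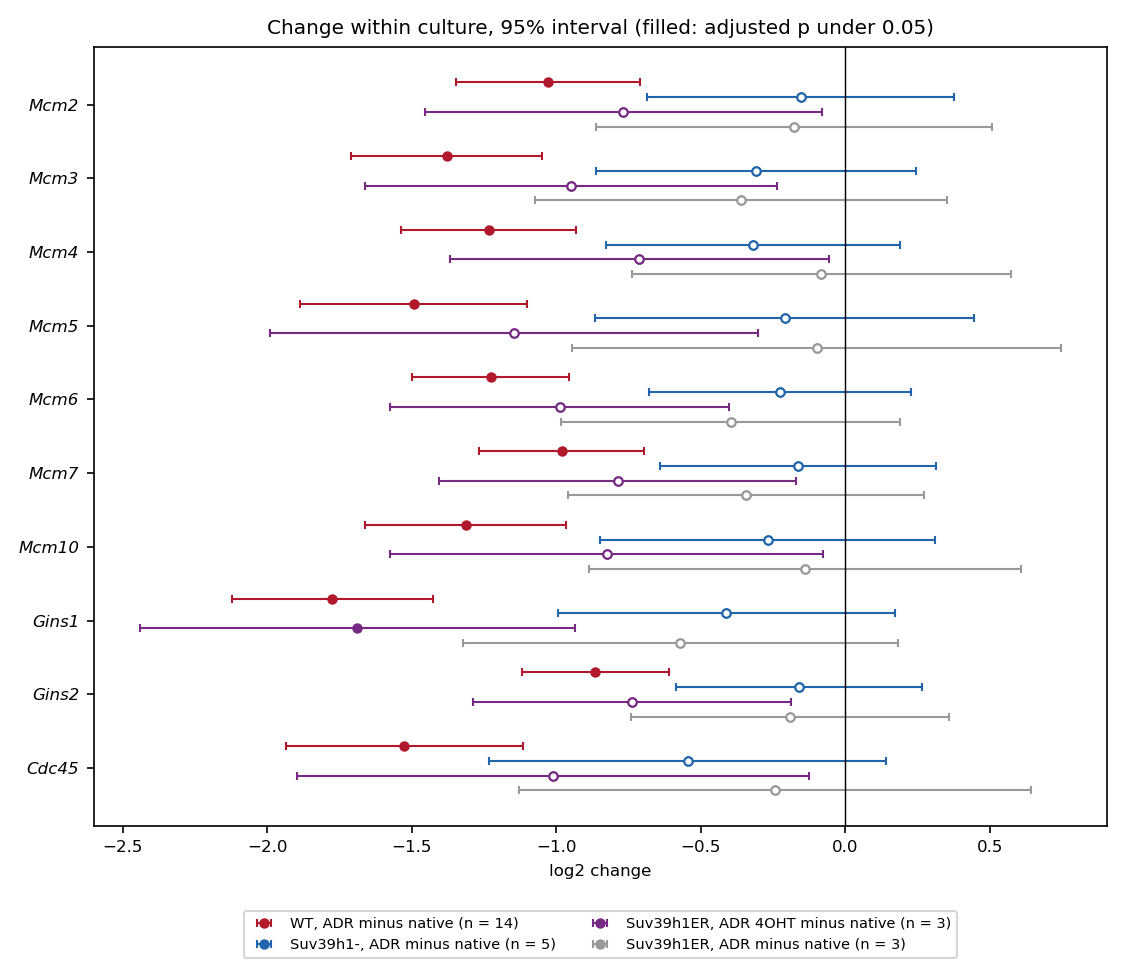
Log2 change within cultures with its 95% interval (x axis) for each helicase gene (y axis) in WT, Suv39h1- and Suv39h1ER cultures. The intervals use a spread estimated over all 22 cultures, not that of each group alone. Filled points passed an adjusted p under 0.05, which was all 10 genes in WT and Gins1 under ADR 4OHT in Suv39h1ER cultures, a call lost without SuvER-4936 or SuvER-5043.

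Across the groups, the mean level of the 10 genes was 8.21 ± 0.47 in WT ADR (n = 14), 8.66 ± 0.45 in Suv39h1ER ADR 4OHT (n = 3), 9.16 ± 0.37 in Suv39h1- ADR (n = 5) and 9.36 ± 0.14 in Suv39h1ER ADR (n = 3), with SD as the error. The native means were 9.44 ± 0.52 in Suv39h1- (n = 5), 9.49 ± 0.34 in WT (n = 14) and 9.62 ± 0.23 in Suv39h1ER (n = 3). Neighbours in this order differed by less than the larger of their SDs, except Suv39h1- ADR and Suv39h1ER ADR 4OHT, whose means differed by more than either SD.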

How the data were processed

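The authors deposited 1 log2 level for each probe set on each array. Per the submitters' processing notes, the tools were RMA, oligo and R 3.5.0. The sources used here do not say whether all 47 arrays were processed together. Of 45101 probe sets, 34958 carry 1 symbol, 932 several and 9211 none here, and 34754 were updated by Entrez number. The brightest probe set stood for each of 18194 genes.

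Within cultures, limma 3.58.1 (R 4.3.3) fitted all 47 arrays with the 22 cultures as blocks, since the series design describes matched pairs. The 2 arrays of a culture deviated together (r above 0.1) in 10 of 14 WT, 5 of 5 Suv39h1- and 2 of 9 Suv39h1ER pairs. Genotypes were compared over 19 arrays with no block. Tests were two-sided, with Benjamini-Hochberg adjustment over all genes and a threshold of 0.05. The script was tested on simulated data. Every member is named. Up to 3 genes per list are named by the smallest p in WT, besides the 5 genes most like the members, and Mki67, Myc and Bcl2. Other list genes were named after their values were seen. Members and lists were chosen with earlier results of these data known. Alternatives were other probe set rules, filters, normalizations and fits, and lymphomas left out or counted once. The number of arrays limits the precision. The targeted gene is not reported here.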

Additional observations from a re-analysis of the deposited data

Results flagged for a closer look

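Dixon's test for a sample far from the rest was run on 30 groups of 5 Suv39h1- values (10 genes, their levels under ADR, their native levels and their changes), with a critical value of 0.71 for the share of the range taken up by the gap. It marked 7 values, all from lymphoma 4936, and chance marks about 1 in 20 groups. These values share arrays and are not 7 separate findings.

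For 6 genes the log2 change of 4936 under ADR lay far above the other 4 lymphomas. It was 0.84 for Mcm4 (next highest -0.45), 1.31 for Mcm5 (next highest -0.35) and 0.86 for Mcm7 (next highest -0.24). It was 0.91 for Gins1 (next highest -0.62), 0.82 for Gins2 (next highest -0.26) and 1.24 for Cdc45 (next highest -0.65). The native level of Gins2 in 4936 was 6.87, and the other native levels were 7.68 to 7.93.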

How the results depend on the processing

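All 10 helicase genes were called lower in WT under every alternative for that comparison except the fibroblast covariate, where Mcm2 (-0.45) and Mcm7 (-0.57) were not. With no replicate block the counts called were 10 in WT, 0 in Suv39h1-, 0 for the difference of responses, and in Suv39h1ER cultures 0, 0 and 1, so the pairing changed no call of a helicase gene. The difference of responses gave 1 called gene with genes under a mean level of 5 left out and 2 with arrays centred on their median. Leaving out lymphomas gave 0 to 5, the WT ones chosen after seeing the data. Suv39h1ER ADR 4OHT against native (Gins1) gave 2 with the same filter on low levels, 0 when only the groups compared were fitted, and 0 to 2 without each culture. Suv39h1- against WT under ADR gave 3 with alike lymphomas counted once, 7 with the mean of all probe sets (Gins2 and Mcm3 lost), 10 with median-centred arrays, 9 with quantile normalization (Mcm3 lost, Cdc45 gained), and 2 to 10 with lymphomas left out. Over all genes, WT calls numbered 2052 with the fibroblast covariate against 5489 without it, and calls for the difference of responses 152 with median-centred arrays, 126 with the filter, 13 with no block and 0 with alike lymphomas counted once, against 62. Suv39h1- against WT under ADR gave 939 with alike lymphomas counted once, against 2293, and Suv39h1ER ADR 4OHT against native gave 267 with no block and 12 with only its groups fitted, against 537.

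Some small changes, none of them called, turned sign. Suv39h1ER ADR against native gave 0.0070 for Mcm10 with the mean of probe sets, and without each culture it ran from -0.15 to 0.016 for Mcm4 and -0.22 to 0.061 for Mcm5. Native Suv39h1- against WT gave -0.070 for Gins1 and -0.14 for Mcm10 with alike lymphomas counted once. With lymphomas left out it ran from -0.22 to 0.052 for Mcm2, -0.21 to 0.23 for Mcm5, -0.20 to 0.11 for Mcm7, -0.11 to 0.18 for Mcm10, -0.016 to 0.37 for Gins1, -0.096 to 0.17 for Gins2 and -0.33 to 0.042 for Cdc45. The causes were not tested. The number of lymphomas, 5 and 3 in the smaller groups, limits what these comparisons can show.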

Other observations

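The 28 probe sets of the 10 genes were below 0 in WT under ADR in 28 of 28, and 26 were called lower when each was tested on its own. The exceptions were a Cdc45 probe set with a mean log2 level of 5.39 (change -0.20, adjusted p = 0.0662) and an Mcm10 probe set with a mean log2 level of 3.65 (change -0.20, adjusted p = 0.284). Of the 34958 probe sets with 1 symbol, 9757 were called either way in WT. In native lymphomas 1 of the 28 was called, against 891 of the 34958 called either way. It was a fainter Mcm3 probe set that was lower in Suv39h1- than in WT lymphomas (-0.98, adjusted p = 0.00654). The brightest Mcm3 probe set differed by -0.24 (adjusted p = 0.733). Between ADR cultures, 14 of the 28 were called higher in Suv39h1- than in WT lymphomas, and 1 lay below 0. Of the 34958, 4131 were called either way there. Those not called included a fainter probe set each of Mcm2 (0.50, adjusted p = 0.133), Mcm5 (0.82, adjusted p = 0.127) and Gins2 (0.67, adjusted p = 0.103).

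The introduced genes were measured on the same arrays. Bcl2 changed by -0.93 in WT under ADR (adjusted p = 0.00104, lower in 14 of 14) and was lower in Suv39h1- than in WT native lymphomas (-2.18, adjusted p = 0.000103). Myc, the transgene's product, changed by -0.78 in WT under ADR (adjusted p = 0.000621, lower in 12 of 14). The log2 change of Myc was 0.35 in Suv39h1- lymphomas under ADR (adjusted p = 0.700, higher in 4 of 5), and 0.15 in Suv39h1ER ADR 4OHT against native cultures (adjusted p = 0.928, higher in 2 of 3). Whether these probe sets read the introduced transcripts was not tested.

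The number 4936 is carried by a Suv39h1- lymphoma and by a Suv39h1ER culture. The mean log2 change of the helicase genes under ADR was 0.87 in the Suv39h1- lymphoma and -0.32 in the Suv39h1ER culture. The labels used here do not say whether they share a tumour.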
